A study of Ovis aries with 2 samples.

Results

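MAP2, the gene of microtubule-associated protein 2, was followed in single-nucleus RNA of sheep cerebral cortex, in neuronal and in microglial barcodes. It is 1 of 13765 listed features and was matched by its symbol, which 1 feature carries. It was chosen by measured values of these data, because its level stayed high in the processed library, where the synaptic vesicle gene SYT1 was almost absent. Its levels in the 2 libraries are therefore a description and were not tested.

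MAP2 protein binds along microtubules and stabilises them. In neurons it is concentrated in cell bodies and dendrites and is a standard stain for both. Its transcript is spliced into long and short forms, which a count per gene does not separate, and short forms have also been described in the oligodendrocyte lineage of rodents. Microglia are the resident macrophages of the brain, and MAP2 is not among the genes usually used to mark them.

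Cortex of adult Rambouillet ewes aged 18 to 36 months, labelled wild type, was used, and the series text speaks of 1 animal. In the post-processed library, debris and red blood cells were removed before nuclei were isolated. In the pre-processed library, dissected cortex went straight to nuclei isolation. The groups were taken from the titles, because the post-processed library carries a treatment label that denies the removal, so every direction between the libraries rests on the titles. The files held 794203 UMIs (unique molecular identifiers, 1 per counted RNA molecule) in 905 post-processed barcodes and 9580441 UMIs in 2125 pre-processed barcodes, and the libraries shared 0 barcodes. The series text speaks of about 5000 nuclei captured per condition. A minimum of 100 detected genes per barcode left 494 post-processed barcodes at a median of 667.5 UMIs and 2125 pre-processed barcodes at a median of 2524 UMIs. There was 1 library per condition, so no test between conditions was possible. All intervals are exact 95% intervals for counting error only, Poisson for levels, conditional binomial for ratios and Clopper-Pearson for shares.

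Barcodes were classed without using MAP2. Microglial barcodes had at least 2 UMIs and at least 2000 CPM (UMIs of a gene per 1000000 UMIs of all listed genes) of P2RY12, INPP5D and CSF1R summed. P2RY12 is a purinergic receptor of microglia, INPP5D a lipid phosphatase of immune cells and CSF1R the receptor of the growth factor that microglia need. Neuronal barcodes had at least 2 UMIs and at least 3000 CPM of SYT1, a calcium sensor of synaptic vesicles. Each class had to lie below the other's limit. The classes held 279 post-processed and 101 pre-processed microglial barcodes, and 0 post-processed and 1318 pre-processed neuronal barcodes. A further 15 pre-processed barcodes met both limits and stood in neither class.

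Markers that the gates did not use were then read in each class. The 7 other microglial markers measured were all detected in the microglial barcodes of both libraries, at a summed 4172 CPM after processing and 2099 CPM before it, against 41.6 CPM in pre-processed neuronal barcodes. Of 13 neuronal markers other than SYT1, 6 were detected in post-processed microglial barcodes at a summed 2472 CPM, nearly all of it ERBB4, and GRIN1, STMN2, UNC13A, NEFM, SST, VIP and DLX1 had 0 UMIs there. In pre-processed microglial barcodes all 13 were detected, at a summed 3738 CPM against 10846 CPM in neuronal barcodes. Myelin markers stood at 2601 CPM in post-processed and 2133 CPM in pre-processed microglial barcodes, and 145 of 279 and 71 of 101 of them had such a UMI. Astrocyte markers stood at 232 CPM in post-processed and 2393 CPM in pre-processed microglial barcodes, and precursor markers at 762 and 2747 CPM. The part of this RNA in the MAP2 levels was not tested, and levels without barcodes that carry SYT1 or myelin UMIs are given with the results.

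Most MAP2 UMIs lay in the class that held most UMIs of all genes, a different one in each library. The post-processed library held 1191 MAP2 UMIs, of which 1023, or 85.9%, lay in microglial barcodes, 120 in the other kept barcodes and 48 in barcodes under 100 genes. Microglial barcodes also held 522572 of its 794203 UMIs of all genes, and no barcode met the neuronal gate. The pre-processed library held 18343 MAP2 UMIs, of which 16284, or 88.8%, lay in neuronal barcodes and 316, or 1.72%, in microglial ones. Of its 9580441 UMIs of all genes, neuronal barcodes held 7649720 and microglial ones 200616. Over all kept barcodes MAP2 stood at 1494 CPM after processing and 1915 CPM before it, a log2 ratio of -0.36 (-0.45 to -0.27). For SYT1 the same sums were 51.0 and 7338 CPM.

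MAP2 was nearly as high per UMI in microglial as in neuronal barcodes. It had 1958 CPM (1839 to 2081) in post-processed microglial barcodes, 1575 CPM (1406 to 1759) in pre-processed microglial barcodes and 2129 CPM (2096 to 2162) in pre-processed neuronal barcodes. All 3 levels lay within a factor of 2 of each other. SYT1, by contrast, had 40.2 CPM in post-processed microglial barcodes, 977 CPM in pre-processed microglial barcodes and 8983 CPM in the neuronal barcodes that it defined.

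**Figure D1:**
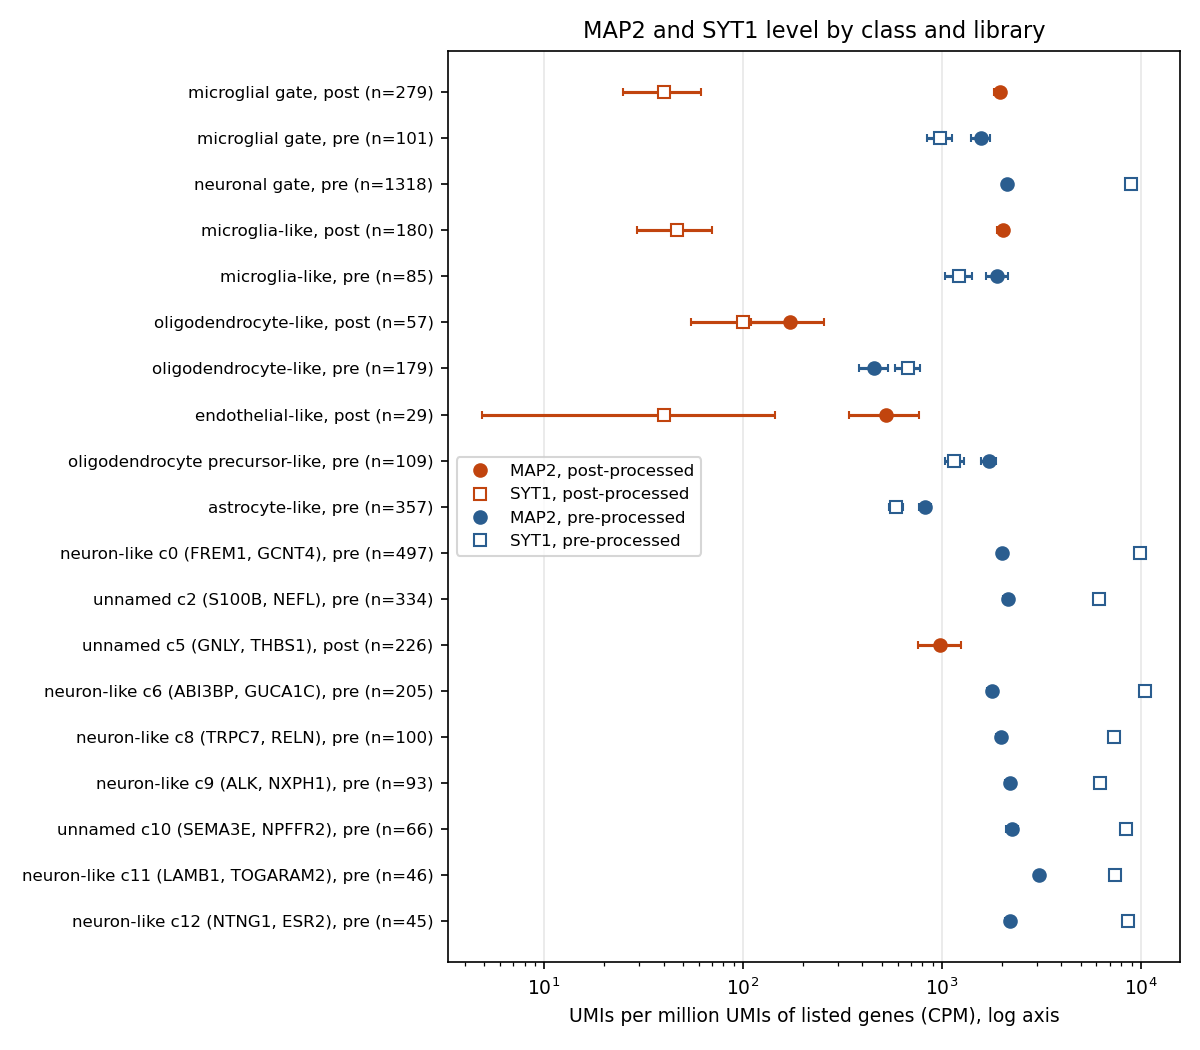
MAP2 (filled circles) and SYT1 (open squares) in CPM on a log axis, for the 3 gated classes and for every cluster class with at least 20 barcodes, post-processed in red and pre-processed in blue; bars are exact 95% Poisson intervals and n is the number of barcodes. MAP2 lies between 1575 and 2030 CPM in the microglial rows of both libraries, while SYT1 lies at 40.2 and 46.5 CPM in the post-processed ones; unnamed cluster c5 had 0 SYT1 UMIs and shows no square.

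Within the pre-processed library, MAP2 was lower in microglial than in neuronal barcodes by a log2 ratio of -0.43 (-0.60 to -0.27). That difference depended on the gate and the scale. Over 13 alternatives it ran from -0.95, with the median gene ratio of 0.51 subtracted, to 0.046. With gate thresholds halved it was -0.54 (-0.72 to -0.37). It was 0.046 (-0.19 to 0.27) when microglial barcodes were gated on C1QA, C1QB, C1QC, CD74, LAPTM5 and DOCK8 instead, and 0.0034 (-0.32 to 0.30) when barcodes with a myelin UMI were left out of both classes. Of 3309 genes with a mean of at least 50 CPM over the pair of classes, 16.1% were at least 2-fold lower in microglial barcodes and 32.5% at least 2-fold higher. Among the 56 genes at least as abundant as MAP2 in neuronal barcodes, MAP2 included, 16 lay within 2-fold in microglial barcodes of the same library, or 28.6%.

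Post-processed microglial barcodes were set beside the same neuronal barcodes, so the pair of ratios shares its lower term. The log2 ratio of MAP2 was -0.12 (-0.21 to -0.030), and it was 0.22 (0.035 to 0.39) without barcodes with a myelin UMI and 0.12 (0.0081 to 0.23) without the 5% deepest barcodes. Over 14 alternatives it ran from -0.70, with the median gene ratio of 0.58 subtracted, to 0.22. Of 3329 genes 22.7% were at least 2-fold lower and 37.8% at least 2-fold higher in the post-processed microglial barcodes. Of the 56 genes at least as abundant as MAP2 in neuronal barcodes, 8 lay within 2-fold here, or 14.3%, and MAP2 was 1 of them by the value above. MAP2 was chosen because its level stayed high after processing, so its place among the 8 follows from that choice. The 56 genes were picked by their neuronal level, the lower term of both ratios. Both counts therefore lean to genes lower in microglial barcodes.

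Between the libraries, MAP2 in microglial barcodes had a log2 ratio of 0.31 (0.13 to 0.50), 1958 CPM post-processed and 1575 CPM pre-processed. The direction did not hold. The ratio was -0.10 (-0.34 to 0.15) with the C1Q, CD74, LAPTM5 and DOCK8 gate and -0.053 (-0.40 to 0.33) among microglial barcodes without a SYT1 UMI, 262 post-processed and 23 pre-processed. Of 3410 genes 10% were at least 2-fold higher and 16.5% at least 2-fold lower after processing. Of 76 genes at least as abundant as MAP2 in the pre-processed microglial barcodes, 56, or 73.7%, lay within 2-fold, so a MAP2 level held within 2-fold between the libraries was common among abundant genes.

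The share of barcodes with a MAP2 UMI followed depth. Unthinned, MAP2 was seen in 181 of 279 post-processed microglial barcodes, or 64.9% (59.0 to 70.5%), in 93 of 101 pre-processed microglial barcodes, or 92.1% (85.0 to 96.5%), and in 1277 of 1318 neuronal barcodes, or 96.9% (95.8 to 97.8%). Their median depths were 898, 1386 and 3688.5 UMIs. After each barcode was thinned to 200 UMIs, which left out 22 post-processed microglial barcodes and none of the other classes, the shares were 33.5% (27.7 to 39.6%), 28.7% (20.1 to 38.6%) and 33.2% (30.6 to 35.8%). These 3 intervals overlapped. Thinned to 500 UMIs, the shares were 54.1% (46.8 to 61.2%) of 196 post-processed microglial, 60.4% (50.2 to 70.0%) of 101 pre-processed microglial and 64.2% (61.5 to 66.8%) of 1318 neuronal barcodes, where the post-processed microglial interval lay below the neuronal one. At 200 UMIs SYT1 was seen in 1.17% (0.241 to 3.37%), 17.8% (10.9 to 26.7%) and 80.2% (77.9 to 82.3%).

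MAP2 shares were lower in oligodendrocyte-like barcodes of the same libraries. At 200 UMIs MAP2 was seen in 7.02% (1.95 to 17.0%) of 57 post-processed and 10.6% (6.51 to 16.1%) of 179 pre-processed oligodendrocyte-like barcodes, whose median depths were 2434 and 1490 UMIs. The microglial shares lay above both in either library. Pre-processed oligodendrocyte precursor-like barcodes, 109 in number, had a share of 32.1% (23.5 to 41.7%). That interval overlapped those of the pre-processed microglial and neuronal barcodes. The 357 pre-processed astrocyte-like barcodes had 15.7% (12.1 to 19.9%).

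**Figure D2:**
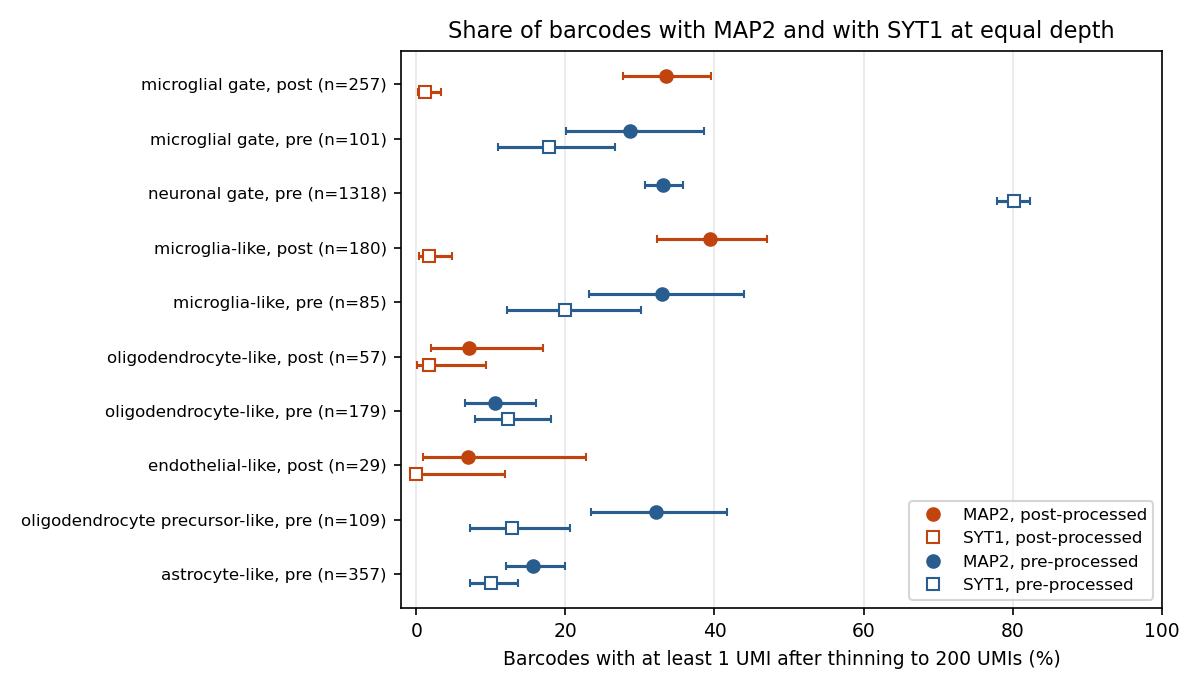
Percentage of barcodes with at least 1 UMI of MAP2 (filled circles) or SYT1 (open squares) after thinning each barcode to 200 UMIs, by class and library, with exact 95% Clopper-Pearson bars. MAP2 is seen in 28.7 to 39.4% of barcodes in the microglial and neuronal rows and in 7.02 to 10.6% in the oligodendrocyte-like rows. It is seen in 32.1% in the oligodendrocyte precursor-like row and in 15.7% in the pre-processed astrocyte-like row. SYT1 spans 1.17 to 80.2% over the 3 gated rows.

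MAP2 UMIs per SYT1 UMI differed between classes. The gates use SYT1, at least 3000 CPM for neuronal and under it for microglial barcodes, which lowers the neuronal ratio. MAP2 was also chosen for staying high where SYT1 was almost absent. The gap between the neuronal and microglial ratios therefore follows in part from the gate and that choice, and carries no test. Neuronal barcodes had 0.237 MAP2 UMIs per SYT1 UMI (0.233 to 0.241). Post-processed microglial barcodes had 48.7 (31.7 to 79.0) and pre-processed microglial barcodes 1.61 (1.34 to 1.94). Pre-processed astrocyte-like barcodes had 1.40 (1.26 to 1.55), oligodendrocyte precursor-like barcodes 1.49 (1.29 to 1.72) and oligodendrocyte-like barcodes 0.677 (0.540 to 0.845). The astrocyte-like and precursor-like intervals overlapped that of pre-processed microglial barcodes. At the neuronal ratio, the 21 SYT1 UMIs of post-processed microglial barcodes would come with 4.98 MAP2 UMIs, or 0.486% of the 1023 measured. The 196 SYT1 UMIs of pre-processed microglial barcodes would come with 46.4 MAP2 UMIs, or 14.7% of the 316 measured. These shares count only RNA that carries MAP2 and SYT1 in the proportion of neuronal barcodes. That proportion came from the pre-processed library, from barcodes picked for high SYT1. Post-processed barcodes under 100 genes had 48 MAP2 UMIs and 1 SYT1 UMI, a ratio of 48.0 (8.21 to 1935). The part of such RNA in the microglial levels was not tested.

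Barcode by barcode, MAP2 mostly occurred without SYT1 in the post-processed microglial barcodes. The choice of MAP2 and the SYT1 limit of the gate both lean to this pattern, so the counts are a description. Of 279 such barcodes, 165 had MAP2 and no SYT1, 16 had both, 1 had SYT1 alone and 97 had neither. Of 101 pre-processed microglial barcodes, 21 had MAP2 alone, 72 had both, 6 had SYT1 alone and 2 had neither. MAP2 stood at 1981 CPM (1847 to 2123) in the 262 post-processed microglial barcodes without SYT1 and at 2042 CPM (1592 to 2580) in the 23 pre-processed ones, intervals that overlapped. With SYT1 it stood at 1875 CPM (1634 to 2141) in 17 post-processed and 1479 CPM (1300 to 1676) in 78 pre-processed ones. Those with SYT1 were deeper, at medians of 4690 against 799.5 UMIs post-processed and 1425 against 1144 UMIs pre-processed. The part of depth in these levels was not tested.

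Dendritic and synaptic genes were lower in microglial barcodes, most of them by far more than MAP2. SYT1, which defines the neuronal class, was left out of the counts here. Of the 24 other dendritic and synaptic genes 17 were measured, and 14 passed the mean of 50 CPM in post-processed microglial over pre-processed neuronal barcodes. All 14 of those were at least 2-fold lower, beside 22.7% of all genes, with a median log2 ratio of -5.75 with genes at 0 set to a bound of 3 UMIs, against 0.58 over all genes. In the pre-processed library 16 passed, 13 of them at least 2-fold lower, beside 16.1% of all genes, and their median was -2.40 against 0.51 over all genes. A gene that passed through its neuronal level alone had to be lower, so these counts describe the list and carry no test. Of the 3 within 2-fold, CAMK2A, a calcium-dependent kinase, had 753 against 1342 CPM, and the neurofilament genes NEFL and NEFM had 74.8 against 70.2 and 79.8 against 75.3 CPM. KCNIP4, a potassium channel partner, had 68.9 CPM in post-processed microglial, 3285 CPM in pre-processed microglial and 19508 CPM in neuronal barcodes. NRXN3, a presynaptic adhesion protein, had 1642, 2796 and 13636 CPM in the same order of classes. KALRN, a regulator of dendritic spines, had 89.9, 384 and 2943 CPM, and RIMS1, a scaffold of the presynaptic active zone, 70.8, 429 and 2899 CPM.

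**Figure D3:**
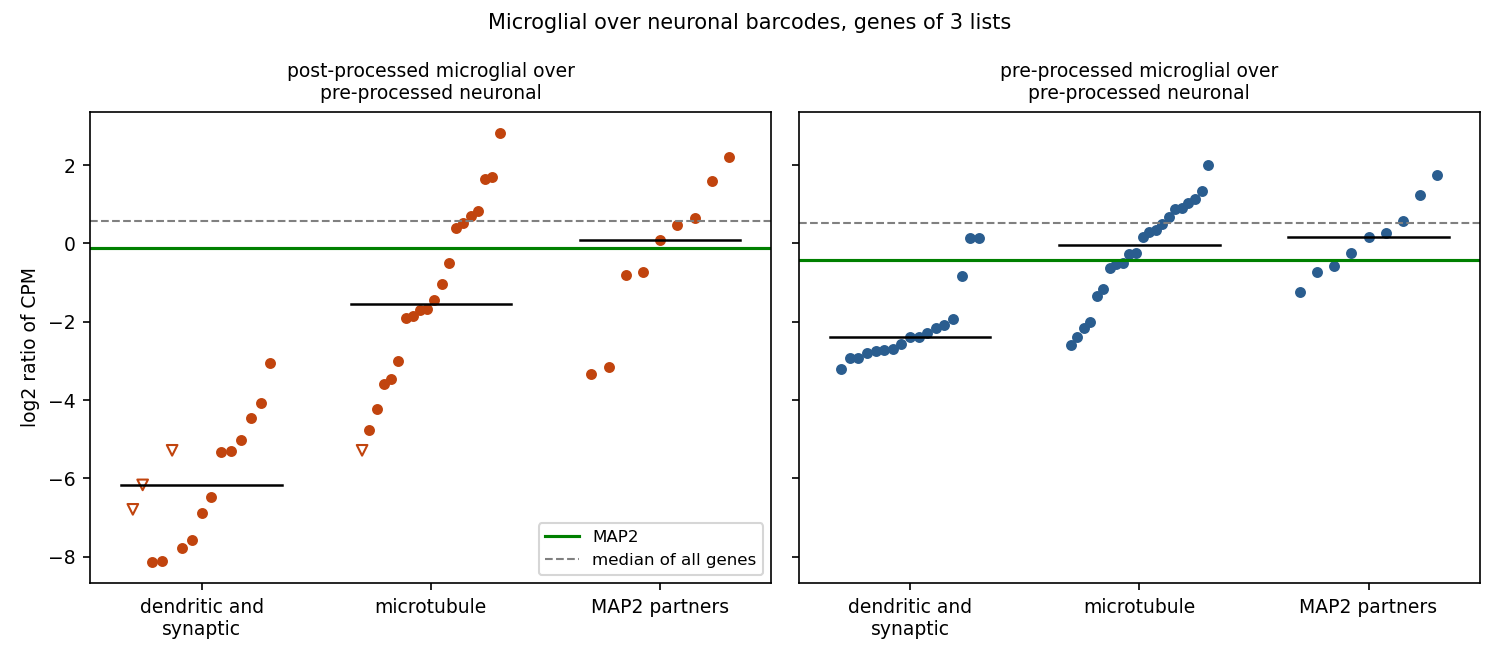
log2 ratio of CPM in microglial over pre-processed neuronal barcodes for genes of 3 lists with a mean of at least 50 CPM, SYT1 included, post-processed microglial on the left and pre-processed microglial on the right. Points are genes, open triangles bounds for genes at 0 UMIs, black bars list medians, the green line MAP2 (-0.12 left, -0.43 right) and the dashed line the median of all genes; MAP2 lies above every dendritic and synaptic gene on the left and above all but NEFL and NEFM on the right.

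Genes that act on microtubules were counted in the same way. Of 59 on the list 25 were measured, MAP2 not counted. In post-processed microglial over pre-processed neuronal barcodes 20 passed, of which 12 were at least 2-fold lower, 3 at least 2-fold higher and 5 within 2-fold, beside 22.7% lower and 37.8% higher over all genes, and the list median was -1.55 against 0.58. Motor genes were lower, with KIF5C at 70.8 against 793 CPM and KIF21A at 182 against 664 CPM. EML6, a microtubule-binding protein, stood at 34.4 against 661 CPM, and CLASP1, which tracks growing microtubule ends, at 243 against 503 CPM. MACF1, which links actin and microtubules, stood at 1263 against 710 CPM, EML4 at 683 against 218 CPM and TUBB4A, a beta tubulin, at 344 against 48.8 CPM. In the pre-processed library 22 passed, with 6 lower and 4 higher by at least 2-fold, beside 16.1% lower and 32.5% higher over all genes, and a list median of -0.038 against 0.51. Between the microglial barcodes of the libraries 20 passed, with 7 lower and 2 higher by at least 2-fold after processing, beside 16.5% lower and 10% higher over all genes, and the list median was -0.57 against -0.011 over all genes.

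Of 20 kinases, phosphatase subunits and anchors that act on or bind MAP2, 12 were measured and 9 passed in each comparison. In post-processed microglial over pre-processed neuronal barcodes 2 were at least 2-fold lower, 2 at least 2-fold higher and 5 within 2-fold, beside 22.7% lower and 37.8% higher over all genes, so the share lower was that of all genes. The list median was 0.094 against 0.58. PPP2R2B, a regulatory subunit of protein phosphatase 2A, stood at 1726 against 3028 CPM. PPP2R2C, of the same family, stood at 124 against 1274 CPM and PPP2R2A at 637 against 212 CPM. The neuronal stress kinase MAPK10 stood at 214 against 1936 CPM. The kinase genes GSK3B (526 against 338 CPM), PRKACB (478 against 345 CPM) and FYN (473 against 444 CPM) lay within 2-fold. In the pre-processed library 1 was at least 2-fold lower and 2 were higher, beside 16.1% and 32.5% of all genes, and the list median was 0.18. Between the microglial barcodes of the libraries 2 were lower and 0 higher, beside 16.5% and 10% of all genes, and the list median was -0.081.

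MAP2 was then read in every cluster, and clusters with at least 20 barcodes in a library were put in order. The 14 clusters were computed without MAP2 and named from fixed markers, with the ending "-like". Among pre-processed clusters the order from the top was cluster 11, a neuron-like cluster led by LAMB1 and TOGARAM2, at 3068 CPM (2940 to 3200), then unnamed cluster 10, led by SEMA3E, at 2256 CPM (2108 to 2411). Neuron-like clusters 12 and 9 followed at 2200 and 2199 CPM, and unnamed cluster 2, led by S100B and NEFL, at 2149 CPM (2028 to 2274). Neuron-like clusters 0 and 8 had 2010 and 1982 CPM. Microglia-like barcodes had 1896 CPM (1668 to 2146), neuron-like cluster 6 had 1786 CPM (1700 to 1876) and oligodendrocyte precursor-like barcodes 1724 CPM (1576 to 1883). Astrocyte-like barcodes came next at 824 CPM (770 to 881) and oligodendrocyte-like barcodes last at 456 CPM (383 to 540). Cluster 11 stood apart from all others in this order, and astrocyte-like and oligodendrocyte-like barcodes stood apart from each other and from the rest of it. The 8 pre-processed endothelial-like barcodes, too few for the order, had 881 CPM (482 to 1479), which overlapped the astrocyte-like and the oligodendrocyte-like interval. Every neighbour between cluster 10 and the precursors overlapped the next in its interval.

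Cluster 11 was also the deepest, at a median of 16117 UMIs per barcode against 2524 in the whole library. The part of depth in its MAP2 level was not tested. Unnamed cluster 2 held 284 of the 1318 neuronal barcodes, at 6214 CPM of SYT1 over the whole cluster and a median of 1262 UMIs, and astrocytes were its closest class by markers. The cluster of SST and LHX6 interneuron genes, cluster 9, and the cluster led by TRPC7 and RELN, cluster 8, had 2199 CPM (2082 to 2321) and 1982 CPM (1870 to 2098). Over neuronal barcodes split into tertiles of depth, MAP2 had 2032 CPM (1919 to 2150) in the shallowest, 1948 CPM (1882 to 2016) in the middle and 2196 CPM (2156 to 2236) in the deepest.

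In the post-processed library the order, by the same minimum of barcodes, was microglia-like barcodes at 2030 CPM (1906 to 2160), the unnamed shallow cluster 5 at 983 CPM (763 to 1246), endothelial-like barcodes at 522 CPM (341 to 765) and oligodendrocyte-like barcodes at 172 CPM (110 to 257). Cluster 5 had a median of 230 UMIs, microglia as its closest class and GNLY, a gene of lymphocyte granules, THBS1 and SAMSN1 as leading genes. It held 68 MAP2 and 0 SYT1 UMIs. The intervals of cluster 5 and the endothelial-like barcodes overlapped slightly, and the other neighbours in this order were apart. The 2 post-processed astrocyte-like barcodes, too few for the order, had 1683 CPM (1042 to 2573), which overlapped the microglia-like and the cluster 5 interval. No microglial barcode fell in the oligodendrocyte-like cluster, and microglial barcodes had 11.1 times the MAP2 level of oligodendrocyte-like barcodes after processing, a log2 ratio of 3.48 (2.92 to 4.15), and 3.45 times before it, a log2 ratio of 1.78 (1.49 to 2.09).

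Relative to counting alone, the spread of MAP2 UMIs at equal depth was widest in post-processed microglial barcodes at the deeper thinning. After thinning to 200 UMIs, the variance of MAP2 UMIs divided by their mean, which is 1 for pure counting, was 1.02 over post-processed microglial, 1.21 over pre-processed microglial and 1.02 over neuronal barcodes. After thinning to 500 UMIs it was 1.59 over 196 post-processed microglial, 0.968 over 101 pre-processed microglial and 1.07 over 1318 neuronal barcodes. The highest count at that depth was 9, 4 and 8 MAP2 UMIs in the same order, against means of 0.939, 0.911 and 1.05. The part of single barcodes in the value of 1.59 was not tested. At 200 UMIs the mean was only 0.405, 0.356 and 0.403 MAP2 UMIs per barcode in the same order of classes. With so few UMIs a value near 1 cannot tell alike levels from differing ones. The 14 post-processed microglial barcodes with the most MAP2 held 31.7% of its UMIs and 25.9% of all UMIs of the class. The most in a single barcode was 42 UMIs in post-processed microglial, 10 in pre-processed microglial and 133 in neuronal barcodes. The deepest barcodes of these classes had 24968, 7205 and 45679 total UMIs. The level also differed between clusters of the post-processed class, whose 174 barcodes in the microglia-like cluster had 2083 CPM (1955 to 2217) and whose 100 barcodes in cluster 5 had 929 CPM (654 to 1281).

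**Figure D4:**
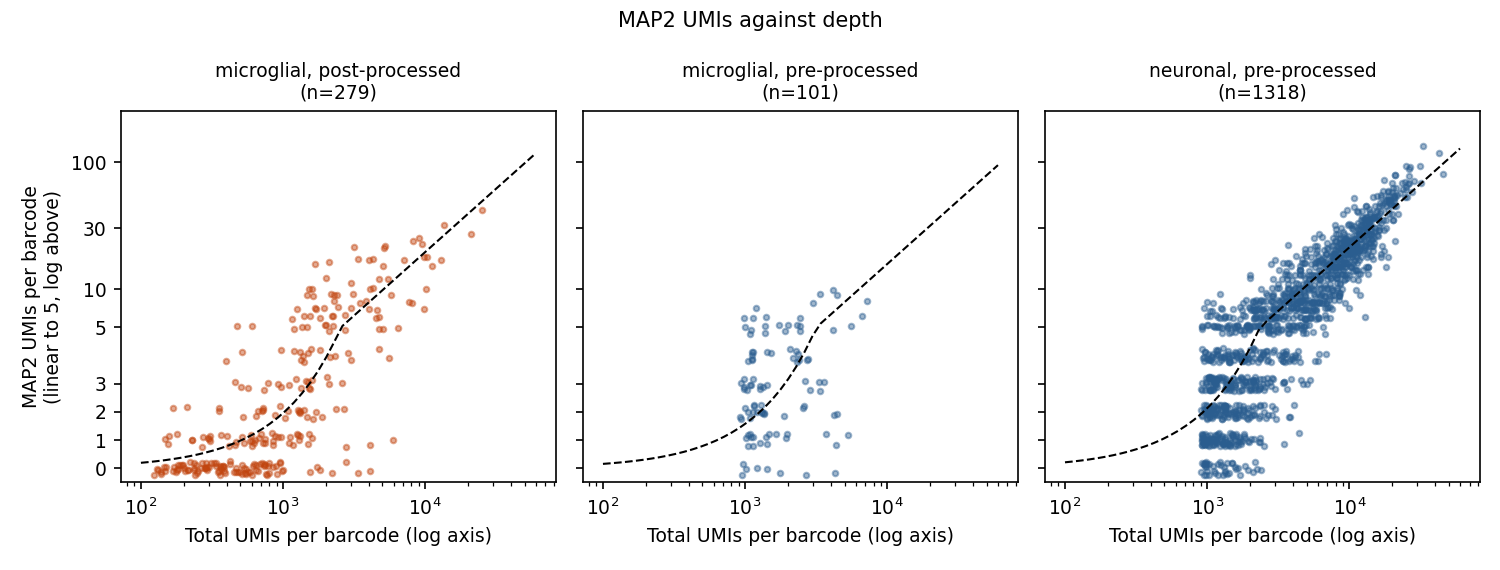
MAP2 UMIs against total UMIs of each barcode (log axis) in post-processed microglial, pre-processed microglial and pre-processed neuronal barcodes; the vertical axis is linear up to 5 UMIs and logarithmic above, points are jittered by up to 0.25 UMIs, and dashed lines give the class level of 1958, 1575 and 2129 CPM. MAP2 UMIs climb with depth along the class line in the post-processed microglial and the neuronal barcodes, which reach 24968 and 45679 total UMIs. The pre-processed microglial barcodes reach 7205 total UMIs, and none exceeds 10 MAP2 UMIs.

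MAP2 CPM was lower in deeper pre-processed microglial barcodes. The deepest tertile of 33 barcodes had 1173 CPM (984 to 1389), the middle tertile of 34 had 1762 CPM (1413 to 2170) and the shallowest tertile of 34 had 2611 CPM (2108 to 3199). In the post-processed class the deepest, middle and shallowest tertiles of 93 barcodes each had 1987, 1917 and 1674 CPM, with overlapping intervals. Of the 101 pre-processed microglial barcodes 14 fell in the astrocyte-like cluster, at a median of 3729.5 UMIs and 844 CPM of MAP2, and 78 in the microglia-like cluster, at 1266.5 UMIs and 1860 CPM (1625 to 2120). The part of those astrocyte-like barcodes in the trend with depth was not tested.

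Microglial barcodes were also split by whether they had myelin RNA. Post-processed microglial barcodes with a myelin UMI had 1853 CPM (1723 to 1991) and those without one 2316 CPM (2049 to 2608). In the pre-processed library the levels were 1454 CPM (1271 to 1657) with a myelin UMI and 1990 CPM (1600 to 2446) without one. The intervals were apart in the post-processed library and overlapped in the pre-processed one. Post-processed barcodes with a myelin UMI were deeper, at a median of 1465 against 657.5 UMIs, and at 200 UMIs the share with MAP2 ran the other way, 35.8% (27.8 to 44.4%) with a myelin UMI and 30.8% (22.7 to 39.9%) without, with overlapping intervals. FOS, an immediate early gene, stood at 2886 CPM in post-processed and 9.97 CPM in pre-processed microglial barcodes. In the post-processed class the 209 barcodes with a FOS UMI had 1970 CPM of MAP2 (1845 to 2101), and the 70 barcodes without one 1848 CPM (1500 to 2252). Those intervals overlapped. Splits by the gate genes overlapped too in the post-processed class, with 1992 CPM (1867 to 2123) in barcodes with a P2RY12 UMI and 1618 CPM (1277 to 2023) in those without, and 1983 CPM (1856 to 2116) with a CSF1R UMI and 1778 CPM (1468 to 2134) without.

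**Figure D5:**
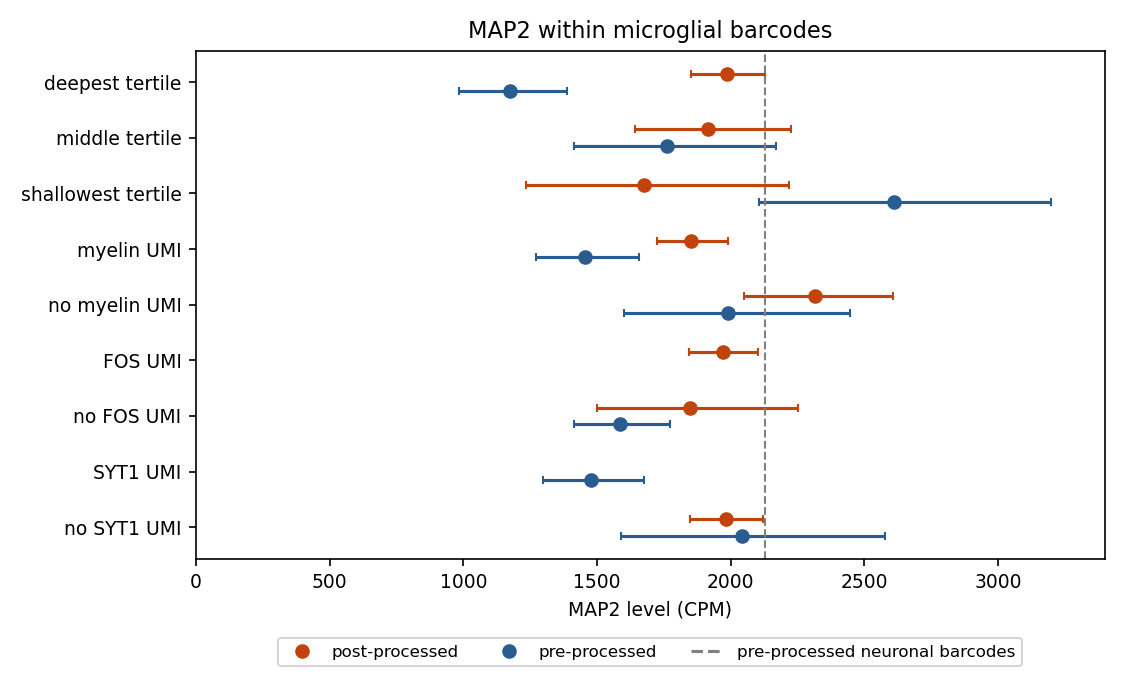
MAP2 level in CPM within microglial barcodes of each library, split by depth tertile and by whether a barcode had a UMI of the myelin list, of FOS or of SYT1; bars are exact 95% Poisson intervals, subsets under 20 barcodes are not drawn, and the dashed line is the pre-processed neuronal level of 2129 CPM. The widest span is over the depth tertiles of the pre-processed library, 1173 to 2611 CPM.

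Ribosomal protein genes, which report cytoplasmic RNA, took 0.999% of UMIs in post-processed microglial, 0.413% in pre-processed microglial and 0.205% in neuronal barcodes. Their part in the MAP2 levels was not tested. Near the limit of the microglial gate, the 15 post-processed barcodes within 1.5-fold above it had 1346 CPM of MAP2 and the 9 within 1.5-fold below it 782 CPM. In the pre-processed library 19 barcodes just above had 976 CPM and 6 just below 1155 CPM. At the neuronal limit 131 pre-processed barcodes just above had 2085 CPM and 80 just below 1918 CPM.

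Levels of the genes beside MAP2 were read in the same classes. RefSeq's annotation of assembly ARS-UI_Ramb_v3.0, used here for gene order only, places UNC80, RPE and KANSL1L on one side of MAP2 and LOC101107339, PTH2R and PIKFYVE on the other. UNC80, a subunit of a neuronal sodium leak channel and the nearest of the first 3, had 15.3 CPM (6.61 to 30.2) in post-processed microglial, 184 CPM (130 to 254) in pre-processed microglial and 811 CPM (791 to 831) in neuronal barcodes. LOC101107339 had 0 UMIs in all 3 classes, and PTH2R at most 18.2 CPM. PIKFYVE, a lipid kinase of endosomes, had 199, 140 and 89.9 CPM in post-processed microglial, pre-processed microglial and neuronal barcodes, RPE 57.4, 44.9 and 43.7 CPM and KANSL1L 233, 299 and 47.6 CPM. The 3 intervals of RPE overlapped.

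Genes with the pattern most like that of MAP2 were ranked over 16 profiles, the clusters of each library with at least 20 barcodes. Among 3157 genes with at least 500 UMIs, Pearson correlations of log2(CPM + 10) were highest for MED12L at 0.952, PRKAR2B at 0.945, PTPRN2 at 0.941, PPARGC1B at 0.932 and CERS6 at 0.920. SYT1 ranked 415 at 0.619. The profiles share libraries and depth, and the values are a description. PRKAR2B, a regulatory subunit of protein kinase A, was also on the list of MAP2 partners, with a log2 ratio of -0.72 in post-processed microglial over pre-processed neuronal barcodes.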

How the data were processed

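Per the series text and the submitters' processing notes, the authors ran a droplet-based 3′ single-nucleus assay and processed reads with DRAGEN. Its version, the build, the gene models and the calling of barcodes were not given in the sources used here. The deposited matrices hold raw UMI counts per gene and barcode, whole numbers by the values in the files, and list 13765 features with 12652 symbols. All 12652 were found in the RefSeq table. That list covers part of the genome, so CPM, depth and detected genes refer to it alone. The shallowest barcode had 44 UMIs in the post-processed and 904 in the pre-processed library.

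Counts were summed per class and library, with 0.5 counts added for log2 ratios. Kept barcodes of the pair of libraries went into 1 clustering (Seurat 5.3.0, R 4.3.3; scale factor 10000, 2000 variable genes without MAP2, 30 principal components, resolution 0.5). A cluster took the class whose markers lay highest above their 25th percentile over other clusters, with at least 3 markers raised 1.5-fold. It stayed unnamed if another class had as many markers among its 10 leading genes or, for cluster 5, because GNLY led it. That naming rule was set after clusters had been seen. No doublet caller was used, and barcodes meeting both gates were set aside. Other steps used Python 3.11.15, numpy 2.4.6 and scipy 1.17.1. Ratio functions were tested on simulated counts.

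MAP2, the gene lists and the gates were chosen with earlier results of these data known. Genes named from a list are the 4 with the most UMIs in pre-processed neuronal and the 4 in post-processed microglial barcodes. Genes of the neuronal marker list at 0, CAMK2A, NEFL, NEFM and ERBB4 were named after their values had been seen. 1 gene that this rule picks is not reported here. No sequence is printed.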

Additional observations from a re-analysis of the deposited data

Results flagged for a closer look

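MAP2 moved in opposite directions between the libraries in 2 classes. Its log2 ratio of post-processed over pre-processed CPM was 0.31 (0.13 to 0.50) in microglial barcodes and -1.38 (-2.09 to -0.77) in oligodendrocyte-like barcodes, which had 172 CPM after processing and 456 CPM before it. With 1 library per condition the difference between the classes was not tested, and the microglial direction turned under other gates. SYT1 moved with it in oligodendrocyte-like barcodes, at 101 CPM post-processed and 674 CPM pre-processed, and its part was not tested.

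Barcodes under 100 detected genes, which only the alternative with no minimum of genes uses, held 48 MAP2 UMIs and 1 SYT1 UMI in the post-processed library. The 48 lie above the 3 UMIs that a count of 0 allows. They numbered 411 at a median of 64 UMIs, and their summed MAP2 level was 1655 CPM (1221 to 2195). The pre-processed library had no such barcode. Of the 411, 38 met the microglial gate, with 7 MAP2 UMIs and 2346 CPM (943 to 4833).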

How the results depend on the processing

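No paired analysis was possible because there was 1 library per condition. The intervals of the microglial shares, 257 and 101 barcodes, limit what can be told apart. Alternatives with the 5% deepest barcodes left out, with gate and cluster both met, without SYT1 with clusters 3 and 5 together and with the dendritic list less SYT1 were chosen after seeing the data. With SYT1 that list had 15 of 15 and 14 of 17 genes lower, with medians of -6.17 and -2.40. For MAP2 post-processed over pre-processed in microglial barcodes (0.31), log2 ratios were 0.097 with classes from clusters, 0.055 with gate thresholds doubled, 0.011 with clusters 3 and 5 together, -0.10 with other gate genes and -0.053 without SYT1. For microglial over neuronal in the pre-processed library (-0.43) they were -0.16 from clusters, -0.072 with doubled thresholds, 0.046 with other gate genes, 0.0034 without myelin UMIs, -0.18 with gate and cluster both met, -0.050 without SYT1 and -0.95 with the median gene ratio as scale. For post-processed microglial over pre-processed neuronal (-0.12) they were -0.017 with doubled thresholds, 0.22 without myelin UMIs, 0.12 without the 5% deepest barcodes, -0.024 with gate and cluster both met and -0.70 with the median scale. Over all kept barcodes (-0.36) the median scale gave -0.82. That scale subtracts a median gene ratio of 0.51, 0.58 and 0.47 in the last 3 comparisons. Shares at 500 UMIs and unthinned were 54.1 and 64.9% in post-processed microglial, 60.4 and 92.1% in pre-processed microglial and 64.2 and 96.9% in neuronal barcodes, since more UMIs per barcode were read. With other gate genes the pre-processed microglial share was 40.7%. For the changes with gates, myelin UMIs and deepest barcodes the cause was not tested. The other alternatives kept the direction and lay within the range given by the main interval, among them no minimum or a minimum of 500 genes, halved thresholds and no added count.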

Other observations

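ERBB4, a receptor tyrosine kinase on the neuronal marker list, had the highest level of that list in the microglial barcodes of both libraries and was picked out after its values were seen. It had 1267 UMIs, or 2425 CPM, in post-processed microglial barcodes, 2054 CPM in pre-processed microglial barcodes and 4012 CPM in pre-processed neuronal barcodes. It made up most of the summed neuronal marker level of 2513 CPM in the post-processed microglial barcodes.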
